A study of Mus musculus with 34 samples.

Results

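The kinesin superfamily genes described here are the rows of the count table whose GENCODE M21 symbol is Kif followed by a digit and optional letters, or Kifc followed by a digit, without the intraflagellar transport motor subunits Kif3a, Kif3b and Kif17. The rule used gene names and no measured value. It took 39 of the 21647 genes in the table. Of the 42 annotated symbols that the rule takes, Kif16bos, Kif28 and Kifc5c-ps were not analysed here. The 39 genes were sorted by role into 4 ciliary kinesins (Kif6, Kif9, Kif27 and Kif19a), 2 kinesins of the primary cilium and the centriole (Kif7 and Kif24), 13 mitotic kinesins, 13 kinesins of axonal and vesicle transport and 6 others. The remaining gene, Kif1bp, encodes a kinesin-binding protein and not a motor. A filter on low counts kept 37 of the 39 genes in each line, and Kif12 and Kif2b did not pass it.

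Kinesins are motor proteins that use ATP to move along microtubules or to take microtubule ends apart. Some kinesins work inside the motile cilium, others build the spindle of a dividing cell, and others carry vesicles, mitochondria or RNA. Ependymal cells line the brain ventricles and move cerebrospinal fluid with beating cilia. The RFX proteins are DNA-binding factors that recognise the X-box, a motif found in promoters of many cilium genes.

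Bulk RNA sequencing was done on 34 samples of ependymal cells, grown from the walls of the lateral ventricles of C57BL/6 mouse embryos at E18.5 and deprived of serum for 4 days so that they differentiated. The groups were Rfx1-/- (4 samples), Rfx2-/- (6) and Rfx3-/- (6), each with the wild types of its own line (4, 8 and 6 samples), and each knockout was compared with those wild types. Every title also carries the term OF1 without saying what it means, and no label says whether replicates were separate embryos or separate cultures. The p-values therefore measure only the spread between these samples, which may be technical.

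Libraries held between 18.2 and 53.4 M counts, of which the kinesin genes took 0.218% to 0.374%. Levels are CPM, counts scaled to library size with TMM factors. The factors were computed within each line, so levels of different lines are not on one common scale and compare only roughly. The targeted gene was lower in every knockout library than in any wild type of its line, at 25.0 ± 4.95 against 65.8 ± 10.4 CPM for Rfx1 (SD, n = 4 and 4), 49.0 ± 4.42 against 107 ± 16.0 for Rfx2 (n = 6 and 8) and 39.9 ± 9.22 against 176 ± 18.2 for Rfx3 (n = 6 and 6). Foxj1, the master regulator of motile ciliogenesis, stood at 1694 ± 188.5, 1140 ± 209 and 1563 ± 96.3 CPM in the wild types of the Rfx1, Rfx2 and Rfx3 lines, and none of the 10 ependymal markers was at 0 in all libraries of a group. Some libraries stood apart within their group, in ways that touch the kinesins. Rfx2 knockout replicates 4 to 6 had the lowest mitotic kinesin sums of their line. Rfx3 knockout replicates 1 and 2 kept higher ciliary kinesin levels than replicates 3 to 6. Rfx3 knockout replicate 3 was low in transport kinesins, and Rfx1 knockout replicate 4 was high in mitotic kinesins. Results that rest on these libraries are given beside fits that leave them out.

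Promoter sequences of 4 kinesin genes are shown because the factors removed bind DNA at promoters: Kif9 and Kif6 as ciliary kinesins, Kif24 as a centriole kinesin, and Kif18a as a mitotic kinesin whose promoter also holds the motif searched. Each run holds 250 bases before and 50 bases from a RefSeq start site (GRCm38.p6) and reads 5′ to 3′ on the strand of the gene. The positions are chr9:110476708-110477007 on the + strand for Kif9, chr17:49614922-49615221 on the + strand for Kif6, chr4:41464799-41465098 on the - strand for Kif24 and chr2:109280488-109280787 on the + strand for Kif18a. Capitals mark an X-box form in Kif9 and Kif18a and the shorter X-box piece GTTGCC in Kif24, and Kif6 held neither.
Kif9: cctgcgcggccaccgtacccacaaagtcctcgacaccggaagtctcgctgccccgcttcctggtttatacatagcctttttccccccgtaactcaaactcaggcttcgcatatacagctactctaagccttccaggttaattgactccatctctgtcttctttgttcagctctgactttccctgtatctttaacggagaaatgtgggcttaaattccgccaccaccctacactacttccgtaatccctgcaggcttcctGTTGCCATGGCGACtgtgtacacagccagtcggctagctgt
Kif6: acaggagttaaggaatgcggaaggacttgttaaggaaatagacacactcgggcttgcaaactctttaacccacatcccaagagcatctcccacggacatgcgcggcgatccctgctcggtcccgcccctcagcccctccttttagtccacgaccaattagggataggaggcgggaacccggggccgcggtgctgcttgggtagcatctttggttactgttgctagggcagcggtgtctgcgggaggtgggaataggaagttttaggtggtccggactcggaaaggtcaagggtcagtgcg
Kif24: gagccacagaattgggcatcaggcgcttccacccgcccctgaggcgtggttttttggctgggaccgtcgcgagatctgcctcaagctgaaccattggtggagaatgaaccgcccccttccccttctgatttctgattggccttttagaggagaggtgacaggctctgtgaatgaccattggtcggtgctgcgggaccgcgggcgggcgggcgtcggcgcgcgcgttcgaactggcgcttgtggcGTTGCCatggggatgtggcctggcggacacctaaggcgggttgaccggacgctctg
Kif18a: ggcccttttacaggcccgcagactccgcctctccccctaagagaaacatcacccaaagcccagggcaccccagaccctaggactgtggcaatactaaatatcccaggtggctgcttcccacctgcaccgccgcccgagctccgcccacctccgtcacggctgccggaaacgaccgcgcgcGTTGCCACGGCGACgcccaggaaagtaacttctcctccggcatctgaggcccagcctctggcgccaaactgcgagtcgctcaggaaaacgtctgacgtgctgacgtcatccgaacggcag

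The X-box form was searched as GTNNCC, 0 to 3 bases of any kind, then NGNAAC, on both strands, and GTTGCC was searched on both strands. The X-box form was found in the promoters of 4 of the 31 kinesin genes with a RefSeq entry (Kif9, Kif18a, Kif18b and Kif23). Counted by window, it was in 5 of 35 kinesin promoter windows (14.3%) and in 5.25% of all 32851 promoter windows. GTTGCC was found for 8 of the 31 genes, which is 9 of the 35 kinesin windows (25.7%), and in 12.5% of all windows. In Kif9, Kif18a and Kif23 both motifs lie on the same bases. The Kif9 match reads GTCGCCATGGCAAC on the opposite strand and begins at base 10 after one annotated start site and at base -27 from the other. The Kif18a match reads GTCGCCGTGGCAAC at base -70, and GTTGCC in Kif24 begins at base -6. Kif27 held neither motif in this window, and Kif19a was among the 8 genes without an entry. These are letter matches in a short window, and no binding was measured.

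Levels of different genes were compared per kilobase of exon (RPKM, from the same scaled counts). In wild types of the Rfx3 line the most abundant kinesin transcript was Kif1a, a carrier of synaptic vesicle precursors, at 54.8 ± 1.31 RPKM (SD, n = 6). Kif1b at 41.4 ± 2.74 and the ciliary Kif9 at 40.6 ± 3.64 RPKM came next and did not differ beyond their spread, followed by Kif1c at 37.4 ± 0.840 and Kif5b at 33.8 ± 1.63 RPKM. Among ciliary kinesins Kif9 was therefore the most abundant, Kif27 stood at 17.9 ± 1.42 RPKM, and Kif6 at 10.6 ± 0.847 and Kif19a at 9.83 ± 1.52 RPKM overlapped. The 13 mitotic kinesins ran from Kif14 at 0.661 ± 0.124 to Kif11 at 9.96 ± 0.787 RPKM. Kif1a also led in wild types of the Rfx1 line (63.6 ± 6.48 RPKM, n = 4) and the Rfx2 line (64.3 ± 5.65, n = 8). Kif9 stood there at 37.9 ± 2.95 and 31.3 ± 7.47 RPKM, below Kif1b and Kif1c in both.

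**Figure D1:**
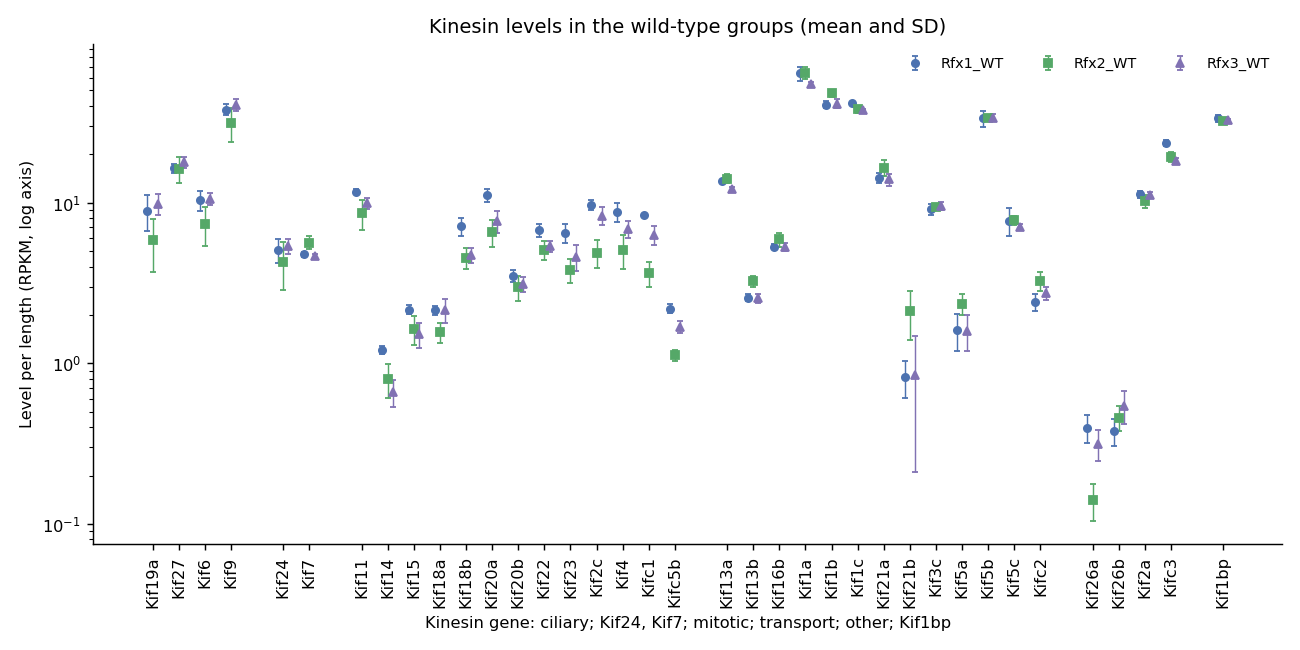
Mean level per exon length (RPKM, log axis) of the kinesin genes kept by the filter in the wild types of the 3 lines, with SD bars (n = 4, 8 and 6), grouped by role. Kif1a led in all 3 groups, Kif9 stood near the transport kinesins Kif1b and Kif1c, and the mitotic Kifc1, Kifc5b and Kif2c were lowest in the Rfx2 line.

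In the Rfx2 and Rfx3 lines the ciliary kinesins fell together, and most mitotic and transport kinesins did not pass the test. In the Rfx2 line 12 of 37 kinesin genes passed (edgeR quasi-likelihood F test, Benjamini-Hochberg adjusted p below 0.05 over all genes kept), 5 higher and 7 lower, where 32.3% of all 14305 genes passed, 13.9% higher and 18.4% lower. For the Rfx3 knockout 10 of 37 passed, 3 higher and 7 lower, against 23.5% of 14340 genes, 10.6% higher and 12.9% lower. As a family the kinesins were thus called about as often as other genes. The median log2 difference (knockout minus wild type) over kinesin genes was 0.07 in the Rfx2 line and 0.04 in the Rfx3 line, beside 0.01 and 0.02 over all genes. In the Rfx1 line 0 of 37 passed, and 0.00723% of all 13830 genes did, which is 1 gene. There 0 kinesin genes had groups that did not overlap, beside 1.49% of all genes, 0 had an unadjusted p under 0.05, and DESeq2 and limma-voom called 0 as well.

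**Figure D2:**
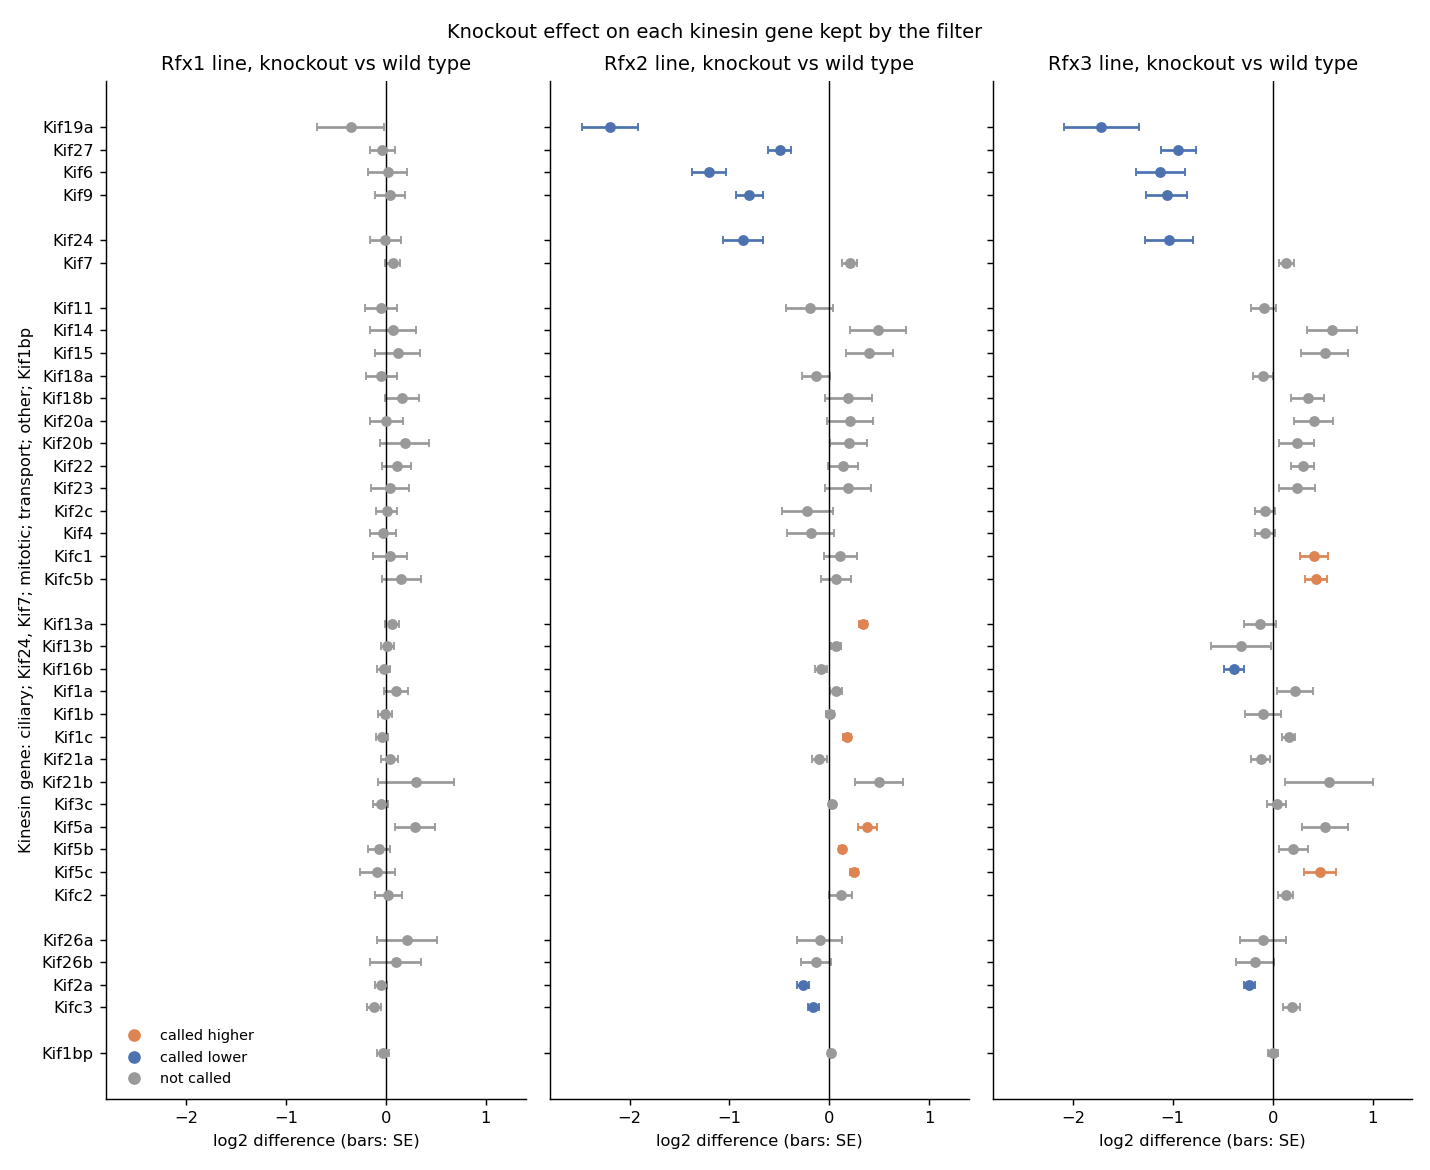
Fitted log2 difference between knockout and wild type (x axis, bars are SE) for each of the 37 kinesin genes kept, in the Rfx1, Rfx2 and Rfx3 lines, grouped by role. The 4 ciliary kinesins and Kif24 lie to the left in the Rfx2 and Rfx3 lines, where all 5 were called lower, and no gene was called in the Rfx1 line.

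All 4 ciliary kinesins fell in the Rfx2 line and in the Rfx3 line, with a median log2 difference of -1.001 and -1.093. The groups did not overlap for 3 of the 4 genes in the Rfx2 line and for all 4 in the Rfx3 line, where 10.5% and 15.5% of all genes had groups that did not overlap. These are bulk samples, so fewer multiciliated cells and less RNA per cell cannot be told apart.

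Kif19a (ENSMUSG00000010021, chr11:114765388-114790739 on GRCm38), a kinesin that takes microtubule ends apart and keeps motile cilia short, had the largest difference of the 37 kinesin genes kept in both lines. In the Rfx2 line its level ran from 2.87 to 7.33 CPM in knockouts (median 4.797) and from 10.7 to 36.7 CPM in wild types (median 24.8). Rfx3 knockouts ran from 3.54 to 20.5 CPM (median 11.9) and their wild types from 31.6 to 50.4 CPM (median 39.2). No knockout library reached the lowest wild type in either line, and knockout means were 21.7% and 30.5% of the wild-type means. The log2 difference was -2.20 ± 0.28 (SE, edgeR adjusted p = 0.000105) in the Rfx2 line and -1.72 ± 0.38 (edgeR adjusted p = 0.00822) in the Rfx3 line. The effects of the Rfx3 and Rfx2 knockouts differed by 0.47 ± 0.46, which did not pass (edgeR adjusted p = 0.625).

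Kif6 (ENSMUSG00000023999, chr17:49615136-49909847), a motor of motile cilia needed for normal ependymal cilia and spinal alignment, had 16.7 to 23.2 CPM in Rfx2 knockouts (median 19.0) and 28.4 to 64.5 CPM in their wild types (median 48.1). Rfx3 knockouts had 15.2 to 46.3 CPM (median 24.2) and their wild types 57.3 to 69.7 CPM (median 62.4). The groups were separate in both lines. The log2 difference was -1.20 ± 0.17 (edgeR adjusted p = 0.000221) and -1.12 ± 0.24 (edgeR adjusted p = 0.00787), which left 43.5% and 45.9% of the wild-type mean.

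Kif9 (ENSMUSG00000032489, chr9:110476958-110525179), the kinesin of the central pair apparatus of motile axonemes, had 69.2 to 85.9 CPM in Rfx2 knockouts (median 75.7) and 89.9 to 194 CPM in wild types (median 138). Levels were 49.99 to 128 CPM in Rfx3 knockouts (median 71.7) and 156 to 195 CPM in their wild types (median 170). Again no knockout library reached a wild type of its line. It fell by 0.80 on the log2 scale (-0.80 ± 0.14, edgeR adjusted p = 0.000688) in the Rfx2 line and -1.06 ± 0.21 (edgeR adjusted p = 0.00526) in the Rfx3 line.

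Kif27 (ENSMUSG00000060176, chr13:58287502-58359122), a relative of Kif7 that takes part in building the central pair, had the smallest difference of the 4. In the Rfx2 line it ran from 50.4 to 65.8 CPM in knockouts (median 60.4) and from 55.1 to 107 CPM in wild types (median 88.7), and wild-type replicate 1 alone lay within the knockout range. In the Rfx3 line it ran from 34.4 to 70.6 CPM in knockouts (median 42.2) and from 85.7 to 102 CPM in wild types (median 91.5), without overlap. The log2 difference was -0.50 ± 0.12 (edgeR adjusted p = 0.00499) and -0.95 ± 0.18 (edgeR adjusted p = 0.00419). The Rfx3 effect was lower than the Rfx2 effect by 0.47 on the log2 scale (-0.47 ± 0.20), which did not pass (edgeR adjusted p = 0.208).

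**Figure D3:**
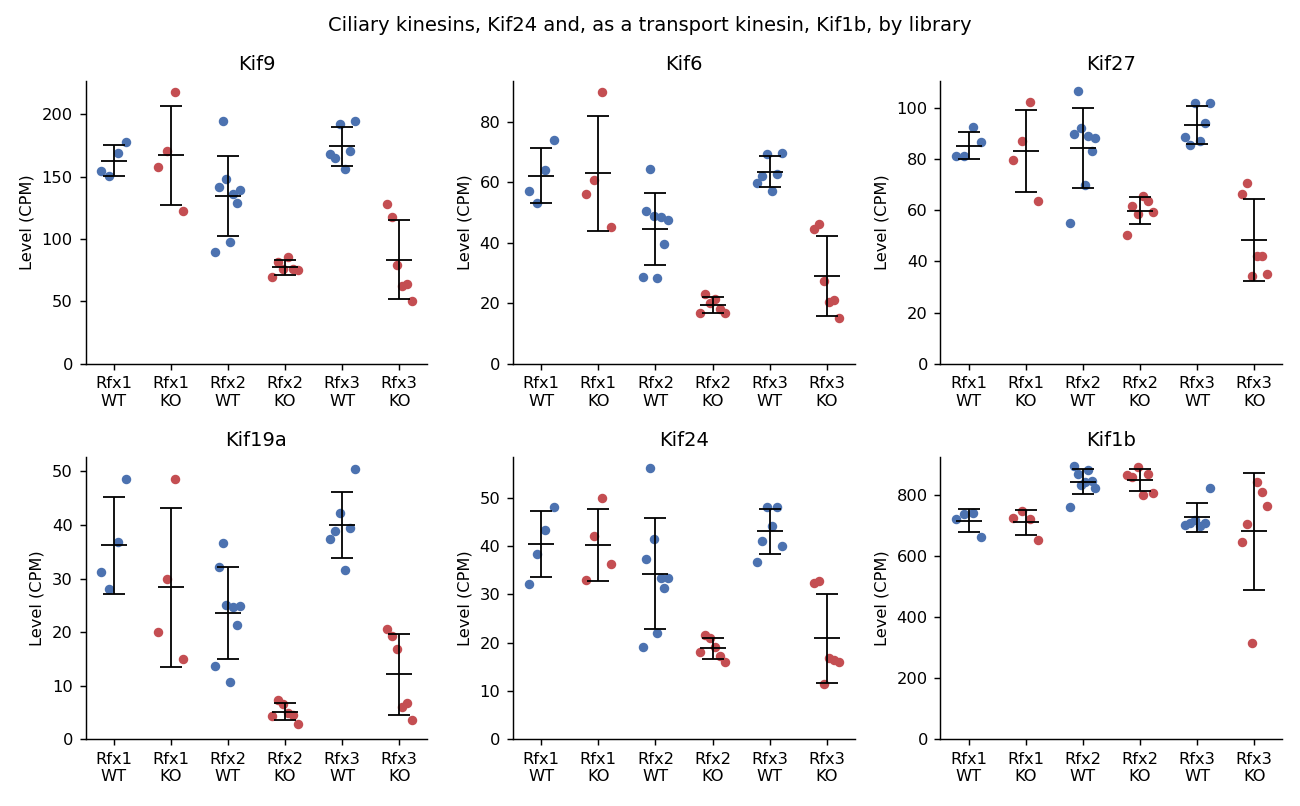
Level (CPM) of the 4 ciliary kinesins, of Kif24 and, for comparison, of the transport kinesin Kif1b in each library (points) of the 6 groups, with mean and SD (n = 4, 4, 8, 6, 6 and 6 from left to right). Rfx3 knockout replicates 1 and 2 are the 2 highest points of their group in the ciliary panels, and the single low Kif1b point at 317 CPM is Rfx3 knockout replicate 3.

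In the Rfx1 line no ciliary kinesin passed. Kif9 had 158, 171, 218 and 122 CPM in the knockouts and 154, 151, 169 and 178 CPM in the wild types. Kif6 had 56.2, 60.8, 89.8 and 45.2 CPM in the knockouts and 57.2, 53.3, 64.1 and 74.1 CPM in the wild types. Kif27 had 79.7, 87.2, 103 and 63.8 CPM in the knockouts and 81.2, 81.2, 92.5 and 86.6 CPM in the wild types. For these genes knockout replicate 3 was the highest and replicate 4 the lowest library of the 8. Kif19a had 20.0, 29.9, 48.6 and 15.02 CPM in the knockouts and 31.2, 28.1, 36.8 and 48.6 CPM in the wild types, with a log2 difference of -0.35 ± 0.34 (unadjusted p = 0.320 in edgeR). The differences of Kif6, Kif9 and Kif27 lay between -0.04 and 0.04 and took either sign when single libraries were left out.

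The level within the Rfx3 knockouts was uneven. The 4 ciliary kinesins summed to 259 and 254 CPM in replicates 1 and 2, 158 CPM in replicate 3, and 131, 134 and 104 CPM in replicates 4 to 6, while the wild types ran from 332 to 417 CPM. Fits of replicates 1 to 3 and of replicates 4 to 6 describe this unevenness. They are no separate test of it, since both subsets were chosen after seeing the data. In a fit of replicates 4 to 6 alone all 4 genes passed, with a median log2 difference of -1.66. In a fit of replicates 1 to 3 alone only Kif19a passed, with a median of -0.68. In those fits 41.7% of all genes passed (19.0% higher, 22.7% lower) and 1.81% passed (0.416% higher, 1.4% lower). Without replicate 3 all 4 passed, with a median of -1.08. Replicates 1 to 4 alone gave 0 ciliary calls by edgeR, with an unadjusted p under 0.05 for all 4 genes and a median of -0.83, and 1.36% of all genes passed there (0.398% higher, 0.957% lower). In the Rfx2 line the median was -1.09 in replicates 1 to 3, where Kif19a passed, and -0.95 in replicates 4 and above, where all 4 passed.

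The 10 ependymal markers were also lower as a sum in both lines. They summed to 901 to 1133 CPM in Rfx2 knockouts and 1209 to 2453 CPM in wild types, and to 809 to 2056 CPM in Rfx3 knockouts and 2226 to 2707 CPM in wild types, and 9 and 6 of the 10 fell. In the Rfx3 knockouts, replicates 1 to 3 had 2056, 1935 and 1974 CPM of ependymal markers and replicates 4 to 6 had 947, 958 and 809 CPM. Markers of the choroid plexus, another ciliated epithelium of the ventricles, were far lower in level, with 32.4 to 81.8 CPM in Rfx3 knockouts and 73.5 to 98.1 CPM in wild types for 6 genes summed, and 3 of them fell. Of all genes 18.4% fell in the Rfx2 line and 12.9% in the Rfx3 line. The part of the ependymal and choroid plexus markers in the kinesin result was not tested. Foxj1 fell in the Rfx2 line (-0.62 ± 0.11, edgeR adjusted p = 0.000978) and did not pass in the Rfx3 line (-0.53 ± 0.20, edgeR adjusted p = 0.0706).

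Genes of the central pair apparatus, where Kif9 works and which Kif27 helps to build, all fell with the ciliary kinesins. All 12 of the 12 listed genes passed in both lines, with a median log2 difference of -1.14 in the Rfx2 line and -1.37 in the Rfx3 line. Of all genes, 18.4% were called lower in the Rfx2 line and 12.9% in the Rfx3 line. In the Rfx1 line 0 of 12 passed (1 at an unadjusted p under 0.05 in edgeR, and 0 called by DESeq2). Hydin, a large central pair protein whose loss causes hydrocephalus, went from 125 ± 58.1 to 43.1 ± 7.57 CPM in the Rfx2 line and from 143 ± 23.3 to 35.8 ± 27.65 CPM in the Rfx3 line (wild type, then knockout, SD). Spef1, a microtubule-bundling protein of the central pair, fell by 1.27 and 1.09 on the log2 scale (edgeR adjusted p = 0.000221 and 0.0338). For 2 of the 12, Spag16 and Spag17, the Rfx3 effect was lower than the Rfx2 effect (log2 -1.94 and -2.37, edgeR adjusted p = 1.443e-05 and 0.0101), and 3.84% of all 14833 genes passed that test (1.74% higher, 2.1% lower). None of the 4 ciliary kinesins did by edgeR (1 at an unadjusted p under 0.05, and 0 called by DESeq2 and limma-voom).

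Of the kinesins tied to the cilium base or tip, Kif24 fell in the Rfx2 and Rfx3 lines. Kif7 passed in no line in the main edgeR fits. Kif24 (ENSMUSG00000028438, chr4:41390745-41464887), a centriole kinesin that restrains cilium assembly, had 16.1 to 21.6 CPM in Rfx2 knockouts (median 18.6) and 19.2 to 56.3 CPM in wild types (median 33.4). Rfx3 knockouts had 11.4 to 32.7 CPM (median 16.6) and their wild types 36.7 to 48.2 CPM (median 42.6). The groups overlapped in the Rfx2 line and were separate in the Rfx3 line. The log2 difference was -0.86 ± 0.20 (edgeR adjusted p = 0.00404) and -1.04 ± 0.24 (edgeR adjusted p = 0.00961), close in size to that of the ciliary kinesins, and Rfx3 knockout replicates 1 and 2 (32.5 and 32.7 CPM) were again the highest of their group. In the Rfx1 line Kif24 stood at 40.3 ± 7.45 CPM in knockouts and 40.5 ± 6.85 CPM in wild types (SD, n = 4).

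Kif7 (ENSMUSG00000050382, chr7:79698098-79715720), which organises the tip of the primary cilium in Hedgehog signalling, had 29.7 ± 3.45 CPM in Rfx2 knockouts and 25.8 ± 2.39 CPM in wild types (SD, n = 6 and 8). The log2 difference of 0.20 ± 0.08 did not pass (edgeR adjusted p = 0.0543), and DESeq2 called it (adjusted p = 0.0397). An edgeR fit of all groups called it too (0.22, adjusted p = 0.02545), as did edgeR in replicates 4 and above alone (0.32, adjusted p = 0.0154). In the Rfx3 line the log2 difference was 0.14 ± 0.08 (edgeR adjusted p = 0.213) and in the Rfx1 line 0.07 ± 0.08. Without Rfx3 knockout replicate 3 it passed in the Rfx3 line (0.18, edgeR adjusted p = 0.0315). Among 6 Hedgehog partners, 1 rose in the Rfx2 line and 2 in the Rfx3 line, and 0 fell. Of all genes 13.9% rose and 18.4% fell in the Rfx2 line, and 10.6% rose and 12.9% fell in the Rfx3 line. Sufu, which holds Gli proteins in check, rose by 0.20 ± 0.04 in the Rfx2 line (edgeR adjusted p = 0.00275). The Hedgehog target Gli1 went from 6.74 ± 2.86 to 11.2 ± 1.28 CPM in the Rfx3 line (edgeR adjusted p = 0.0410), and Gli2 rose there by 0.53 ± 0.14 (edgeR adjusted p = 0.0199). Ptch1, also among the 6, did not pass there (0.35 ± 0.17, edgeR adjusted p = 0.143). In the Rfx2 line the Gli1 difference had the opposite sign and did not pass (-0.76 ± 0.35, edgeR adjusted p = 0.119).

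Of the 13 mitotic kinesins, 0 passed in the Rfx2 line and 2 passed in the Rfx3 line, both higher. In these lines 13.9% and 10.6% of all genes were called higher. The median log2 difference of the 13 was 0.14 and 0.30. Of the 13, 0 in the Rfx2 line had an unadjusted p under 0.05 in edgeR, and DESeq2 and limma-voom called 0. The spread within the Rfx2 knockouts was wide: the 13 genes summed to 394, 425 and 409 CPM in replicates 1 to 3 and to 168, 219 and 192 CPM in replicates 4 to 6. The wild types had 322, 379 and 339 CPM in replicates 1 to 3 and 244.5 to 279.7 CPM in replicates 4 to 8. Knockouts were thus above all wild types in replicates 1 to 3 and below all of them in replicates 4 and above.

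Fits of the libraries on either side of this split describe which genes it held for and are no separate test of it, since the split was known when the subsets were chosen. In replicates 1 to 3 alone 4 of the 13 passed as higher (Kif14, Kif15, Kif18b and Kif20b) and 0 as lower, with a median of 0.28. In replicates 4 and above alone 7 of the 13 passed as lower (Kif11, Kif18a, Kif18b, Kif22, Kif23, Kif2c and Kif4) and 0 as higher, with a median of -0.31. Of all genes 7.33% passed in replicates 1 to 3 (2.64% higher, 4.69% lower) and 27.5% in replicates 4 and above (12.5% higher, 15% lower). Kif2c, a depolymerase that corrects faulty chromosome attachments, had 24.0, 27.9 and 26.4 CPM in knockout replicates 1 to 3 and 8.85, 11.6 and 10.8 CPM in replicates 4 to 6, against 16.4 to 27.7 CPM in wild types. Kif18b, which trims astral microtubules, passed in both fits with opposite signs, 0.48 and -0.43 on the log2 scale (edgeR adjusted p = 0.0337 and 0.0349). In replicates 1 to 4 alone 0 of the 13 passed and 0 had an unadjusted p under 0.05 in edgeR (median 0.17). The genes in this paragraph were named after their values were seen, and the difference between the fits was not tested.

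The 8 proliferation markers moved in the same pattern, at 922.5 to 955 CPM in Rfx2 knockout replicates 1 to 3 and 442 to 517 CPM in replicates 4 to 6, with wild types from 538.5 to 769.8 CPM. Markers of the oligodendrocyte lineage (8 genes) were also high in knockout replicates 1 to 3 (372 to 445 CPM) and low in replicates 4 to 6 (110.2 to 123 CPM), with wild types from 112 to 324 CPM. The part of either list in the kinesin values was not tested. Of 18 mitosis partners, such as the kinases Aurka, Aurkb and Plk1, 0 passed in the Rfx2 line, none of them with an unadjusted p under 0.05 in edgeR, and DESeq2 called 0. In replicates 1 to 3 alone 5 of these partners passed as higher, and in replicates 4 and above alone 9 passed as lower.

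The mitotic kinesins that rose in the Rfx3 line were Kifc1 and Kifc5b. Kifc1 (ENSMUSG00000079553, chr17:33875659-33890661), a minus-end motor that gathers spindle poles, had 20.9 to 33.5 CPM in knockouts (median 31.2) and 17.7 to 25.4 CPM in wild types (median 21.01), with overlapping groups. Its log2 difference was 0.41 ± 0.14 (edgeR adjusted p = 0.0454). Kifc5b (ENSMUSG00000024301, chr17:26917091-26932583), a close copy of Kifc1, had 6.83 to 10.2 CPM in knockouts (median 8.70) and 5.56 to 7.05 CPM in wild types (median 6.30), and a log2 difference of 0.44 ± 0.11 (edgeR adjusted p = 0.0148). The 2 genes are similar enough in sequence that the counting could have divided reads between them, so neither value is certain for the single gene. The call of Kifc1 was lost with limma-voom (adjusted p = 0.0516), with no filter on low counts (edgeR adjusted p = 0.0549), in replicates 1 to 3 or 1 to 4 alone, and without 9 of the 12 libraries in turn. That of Kifc5b was lost in those replicate subsets and held without each of the 12 libraries in turn.

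Among mitotic kinesins that did not pass, Kif14, a motor of the cytokinetic midbody, had the largest difference in the Rfx3 line (0.60 ± 0.25, edgeR adjusted p = 0.0969) and in the Rfx2 line (0.48 ± 0.28, edgeR adjusted p = 0.209). In Rfx3 knockouts it had 6.83, 7.004 and 6.28 CPM in replicates 1 to 3 and 15.2, 11.02 and 15.8 CPM in replicates 4 to 6, against 5.62 to 9.24 CPM in wild types. The sum of the 13 genes showed the same split, with 324, 318 and 340 CPM in replicates 1 to 3 and 475, 421 and 507 CPM in replicates 4 to 6, against 320.1 to 414 CPM in wild types. Fits of either side describe this split and are no separate test of it, since the subsets were chosen after seeing the data. In a fit of replicates 4 to 6 alone 8 of the 13 passed as higher and 0 as lower, beside 19.0% and 22.7% of all genes. In replicates 1 to 3 alone 0 passed by edgeR, and 1 had an unadjusted p under 0.05. Proliferation markers summed to 804 to 906 CPM in knockout replicates 1 to 3 and 976 to 1189 CPM in replicates 4 to 6, with wild types from 746 to 965 CPM. Oligodendrocyte lineage markers summed to 207.6 to 389 CPM in replicates 1 to 3 and 452 to 597 CPM in replicates 4 to 6, against 123 to 345 CPM in wild types, and the part of these lists was not tested. Of the 8 proliferation markers 4 rose in the full line, beside 10.6% of all genes. Of the 18 mitosis partners 1 rose, Birc5, a subunit of the chromosomal passenger complex (0.67 ± 0.22, edgeR adjusted p = 0.0421).

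**Figure D4:**
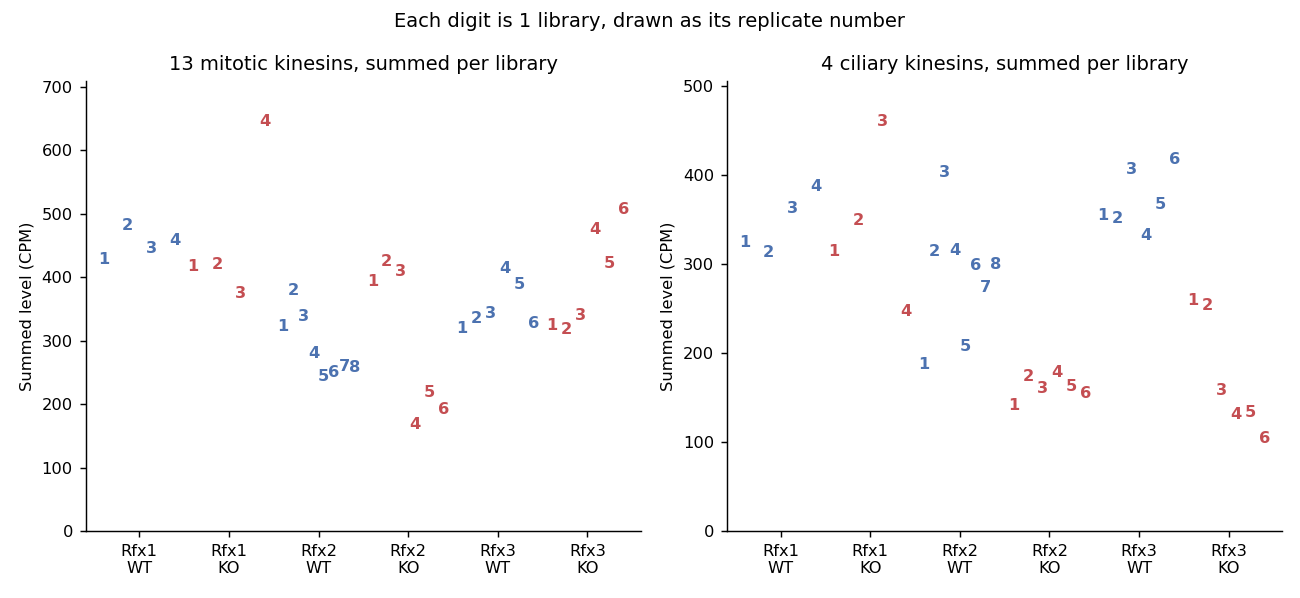
Summed level (CPM) of the 13 mitotic kinesins (left) and of the 4 ciliary kinesins (right) in each library, drawn as its replicate number, in the wild-type (blue) and knockout (red) groups of the 3 lines. Rfx2 knockout replicates 1 to 3 lie above their wild types and replicates 4 to 6 below them for the mitotic kinesins, whereas all 6 lie below every wild type for the ciliary kinesins.

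In the Rfx1 line the mitotic sums were 417, 420.0, 374 and 644.5 CPM in the knockouts and 428.5, 482, 446 and 458.5 CPM in the wild types. Replicate 4 was thus the only knockout above the wild types, and it also had the lowest ciliary sum of the line, 246 CPM, and the highest sum of proliferation markers, 1538 CPM. With all 8 libraries 10 of the 13 differences were positive (median 0.04), and no mitotic kinesin had an unadjusted p under 0.05 in edgeR. Without knockout replicate 4 all 13 were negative (median -0.17) and 0 passed. An unadjusted p under 0.05 in edgeR was seen for 4 of them and for 5 of all 37 kinesin genes. The share of all genes at that p in this fit is not given, so these counts cannot be set against a background. Knockout replicate 4 was also singled out because of its values. The median of the 4 ciliary kinesins went from -0.0086 to 0.11 when that library was left out, and 0 of them passed.

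Of the 13 transport kinesins, 5 rose and 0 fell in the Rfx2 line, with a median log2 difference of 0.11. In the Rfx3 line 1 rose and 1 fell, with a median of 0.13. Of all genes 13.9% rose and 18.4% fell in the Rfx2 line, and 10.6% rose and 12.9% fell in the Rfx3 line. The 5 that rose in the Rfx2 line did so by 0.13 to 0.38 on the log2 scale. They included the 3 heavy chains of conventional kinesin, Kif5a, Kif5b and Kif5c, which carry many kinds of cargo. Kif5c (ENSMUSG00000026764) had 61.9 to 69.1 CPM in Rfx2 knockouts (median 65.6) and 51.2 to 61.9 CPM in wild types (median 54.7), and only the highest wild type reached the knockout range. Its log2 difference was 0.25 ± 0.04 (edgeR adjusted p = 0.000652). Kif5a had 18.8 to 23.6 CPM in knockouts and 12.3 to 19.2 CPM in wild types (0.38 ± 0.10, edgeR adjusted p = 0.00744). Kif5b had 287 to 306 CPM in knockouts and 253 to 284 CPM in wild types, with no overlap (0.13 ± 0.03, edgeR adjusted p = 0.00608). In a fit that shared the spread over all 34 libraries, none of the 3 passed in the Rfx2 line (edgeR adjusted p = 0.0810, 0.297 and 0.108 for Kif5a, Kif5b and Kif5c).

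Kif13a (ENSMUSG00000021375, chr13:46749087-46929867), which moves endosomal cargo such as the mannose 6-phosphate receptor, had the smallest p of the transport kinesins in the Rfx2 line. It had 140 to 151 CPM in knockouts (median 143) and 104 to 128 CPM in wild types (median 114), with no overlap. The log2 difference was 0.34 ± 0.04 (edgeR adjusted p = 8.2e-05), and it passed in replicates 1 to 3 (0.35) and in replicates 4 and above (0.33). In the Rfx3 line it had 49.2 to 116 CPM in knockouts and 95.8 to 102 CPM in wild types and did not pass (-0.13 ± 0.16, edgeR adjusted p = 0.596). The difference between the effects was -0.48 ± 0.14 and did not pass by edgeR (adjusted p = 0.0549), while DESeq2 (adjusted p = 0.0280) and limma-voom (adjusted p = 0.0368) called it, and so did edgeR without Rfx3 knockout replicate 3 (-0.32, adjusted p = 0.0300). Kif1c, which moves between Golgi and endoplasmic reticulum and carries mRNA, rose by 0.18 ± 0.04 in the Rfx2 line (291 to 329 against 250 to 296 CPM, edgeR adjusted p = 0.00540).

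Kif21b, a motor that pauses microtubule growth, had the largest difference among transport kinesins that did not pass, at 0.50 ± 0.24 in the Rfx2 line (edgeR adjusted p = 0.136) and 0.56 ± 0.44 in the Rfx3 line (edgeR adjusted p = 0.378). Its Rfx2 knockout libraries had 45.2, 44.7 and 49.3 CPM in replicates 1 to 3 and 31.8, 25.5 and 19.1 CPM in replicates 4 to 6, and the wild types ran from 17.5 to 39.7 CPM. With the replicate number as a block it passed there (0.38, edgeR adjusted p = 0.0155).

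In the Rfx3 line Kif5c rose and Kif16b fell. Kif5c had 41.5 to 91.3 CPM in knockouts (median 72.8) and 47.4 to 52.6 CPM in wild types (median 50.7), and a log2 difference of 0.48 ± 0.16 (edgeR adjusted p = 0.0477). Knockout replicate 3 was below all wild types and the other 5 knockouts were above them. The call was lost without 9 of the 12 libraries in turn, with limma-voom (adjusted p = 0.0749), with no filter on low counts (edgeR adjusted p = 0.0557), and in replicates 1 to 3 or 1 to 4 alone. Kif16b (ENSMUSG00000038844, chr2:142617474-142901531), the motor of early endosomes, had 25.5 to 40.8 CPM in knockouts (median 38.2) and 44.2 to 51.2 CPM in wild types (median 48.6), with no overlap. Its log2 difference was -0.38 ± 0.10 (edgeR adjusted p = 0.0178), and in the Rfx2 line it was -0.08 ± 0.06 (edgeR adjusted p = 0.319). The call in the Rfx3 line was lost in replicates 1 to 3 or 1 to 4 alone. The difference between the effects, -0.32 ± 0.10, did not pass by edgeR (adjusted p = 0.0770) and was called by DESeq2 (adjusted p = 0.04325).

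Rfx3 knockout replicate 3 set much of the spread of this list. The 13 genes summed to 1321 CPM in it, against 2138 to 2833 CPM in the other Rfx3 knockouts and 2135 to 2363 CPM in the wild types. Kif1b, which carries mitochondria and synaptic vesicle precursors, had 317 CPM in it against 647 to 845 CPM in the other knockouts, Kif1a had 280 against 549.6 to 763 CPM, and Kif13b had 5.62 against 26.0 to 33.6 CPM. These 3 genes were named after their values were seen. Without that library 11 of 37 kinesin genes passed as higher instead of 3, among them Kif1a (0.37, edgeR adjusted p = 0.00396), Kif1c, Kif5a and Kif5b (0.31), and 38.4% of all genes passed (18.7% higher, 19.7% lower) instead of 23.5%. Kif5c and Kif16b passed without it too.

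Kinesin light chains and cargo adaptors went in both directions. Of 14 genes, 6 rose and 3 fell in the Rfx2 line (median 0.10), and 4 rose and 1 fell in the Rfx3 line (median 0.17). Of all genes 13.9% rose and 18.4% fell in the Rfx2 line, and 10.6% rose and 12.9% fell in the Rfx3 line. Klc1, the main light chain that couples conventional kinesin to cargo in brain, rose by 0.18 ± 0.05 (edgeR adjusted p = 0.00722) and 0.31 ± 0.06 (edgeR adjusted p = 0.00576). Klc2, another light chain, was lower by 0.22 in the Rfx2 line (-0.22 ± 0.04, edgeR adjusted p = 0.00147) and by 0.19 in the Rfx3 line (-0.19 ± 0.06, edgeR adjusted p = 0.0376). Arl8b, the GTPase that recruits kinesin to lysosomes, rose by 0.14 and 0.22 (edgeR adjusted p = 0.00529 and 0.0150). Fez1, an adaptor for conventional kinesin, went from 208.5 ± 31.2 to 136 ± 15.3 CPM in the Rfx2 line (edgeR adjusted p = 0.000474).

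The 12 neuronal markers summed to 150 to 204 CPM in Rfx2 knockouts and 88.2 to 223 CPM in wild types, and to 67.8 to 207 CPM in Rfx3 knockouts and 67.5 to 84.9 CPM in wild types, and no marker was at 0 in all libraries of a group. Stmn2 alone stood at 155 ± 22.4 CPM in Rfx2 knockouts. None rose in the Rfx2 line by edgeR (2 had an unadjusted p under 0.05) while in the Rfx3 line 2 rose and 1 fell. Stmn2, a neuronal microtubule regulator, rose from 43.5 ± 6.17 to 101.5 ± 47.2 CPM (edgeR adjusted p = 0.00948), and Dlx2, a transcription factor of interneuron precursors, fell from 8.695 ± 1.235 to 6.535 ± 1.154 CPM (edgeR adjusted p = 0.0468). The part of neurons in the transport kinesin values was not tested. Of 8 astrocyte markers 3 rose in the Rfx2 line and 2 in the Rfx3 line, with sums of 2435 to 11530 CPM over all libraries, and of 8 microglia markers 0 passed in any line by edgeR (0 by DESeq2, and 0 with an unadjusted p under 0.05), with sums of 8.27 to 1168 CPM. Of 8 markers of endothelium and mesenchyme 2 rose in the Rfx2 line and 1 in the Rfx3 line. Beside these marker counts, 13.9% of all genes rose in the Rfx2 line and 10.6% in the Rfx3 line.

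Among the 6 remaining kinesins, Kif2a fell in both lines and Kifc3 fell in the Rfx2 line. Kif2a (ENSMUSG00000021693, chr13:106958996-107022126), a depolymerase that prunes axon branches and also acts at spindle poles, had 52.3 to 56.8 CPM in Rfx2 knockouts (median 53.8) and 58.0 to 77.8 CPM in wild types (median 63.4), without overlap. Levels were 56.7 to 68.2 CPM in Rfx3 knockouts (median 59.9) and 67.4 to 74.4 CPM in their wild types (median 72.5). On the log2 scale the difference was -0.27 ± 0.06 (edgeR adjusted p = 0.00317) and -0.23 ± 0.06 (edgeR adjusted p = 0.0117). Kif2a shares 19.2% of its exon length with Dimt1 on the opposite strand, and Dimt1 stood at 4.68 to 8.535 CPM in the Rfx2 and Rfx3 groups and did not pass in either line. Since strandedness is not stated, reads of exons that overlap a gene on the opposite strand cannot be told apart.

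Kifc3 (ENSMUSG00000031788, chr8:95099828-95202812), a minus-end motor of epithelial cell junctions, was the one kinesin gene of 37 whose Rfx2 and Rfx3 effects differed by edgeR, while DESeq2 also called the difference for Kif13a and Kif16b and limma-voom that for Kif13a. In the Rfx2 line it had 80.1 to 97.6 CPM in knockouts (median 91.5) and 92.5 to 112 CPM in wild types (median 101), with a log2 difference of -0.16 ± 0.05 (edgeR adjusted p = 0.0341). Rfx3 knockouts had 91.7 to 128 CPM (median 110) and their wild types 90.6 to 102 CPM (median 96.6), and 0.19 ± 0.08 did not pass (edgeR adjusted p = 0.117), while without knockout replicate 3 it did (0.24, edgeR adjusted p = 0.0214). The difference of the effects was 0.34 ± 0.09 (edgeR adjusted p = 0.0328), and it did not pass when Rfx2 wild-type replicate 2 or 6, or Rfx3 wild-type replicate 1, 3 or 5, was left out. The call in the Rfx2 line was lost without 9 of the 14 libraries in turn.

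Kif26a and Kif26b, unusual kinesins tied to growth factor signalling, did not pass in any line, with log2 differences from -0.18 to -0.10 in the Rfx2 and Rfx3 lines. Kif1bp did not pass either, and its means lay between 156.5 and 163.2 CPM in all 6 groups. Kif2b had 0 or 1 counts in each group. Kif12, known as a modifier of polycystic kidney disease in mice, was named after its values were seen. It had 60 counts over the 6 Rfx3 wild types and 3 over the knockouts, 42 over the 8 Rfx2 wild types and 5 over the knockouts, and 9 and 2 in the Rfx1 line. That is 0.290 ± 0.0852 against 0.0132 ± 0.0220 CPM in the Rfx3 line and 0.153 ± 0.0785 against 0.0286 ± 0.0142 CPM in the Rfx2 line (wild type, then knockout, SD). The filter left it out of the main test, and without the filter edgeR called it lower in the Rfx3 line (adjusted p = 0.00129) and in the Rfx2 line (adjusted p = 0.00518).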

How the data were processed

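Counts per gene were deposited by the authors as one table of raw read counts for 34 libraries (RNeasy columns and TruSeq RNA-seq libraries, per the labels' protocols). CASAVA 1.8.2, STAR 2.4, featureCounts 1.4.6 and the build GRCm38 are named in the submitters' processing notes, with counting settings, strand use and gene models not given in the sources used here. Of the 21647 gene IDs, 21583 matched GENCODE M21, which gave names, positions and exon lengths. Totals of 18.2 to 53.4 M counts per library limit precision mainly for genes at a few counts, such as Kif12.

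Each line was fitted on its own with edgeR 4.0.16 in R 4.3.3 (quasi-likelihood F test, TMM scaling, filterByExpr at 10 counts per gene and 15 in total, Benjamini-Hochberg adjusted p below 0.05 over all genes kept). The Rfx3 effect minus the Rfx2 effect was tested in one edgeR fit of all 34 libraries. The script was tested on simulated counts. DESeq2 1.42.0, limma 3.58.1 (voom), RLE scaling, no filter, a fit of all groups, a replicate block, subsets of replicates and leaving out each library were alternatives. Replicates 1 to 3 in both lines and replicates 4 to 6 in the Rfx3 line were chosen as subsets after seeing the data, and replicates 1 to 4 in both lines and 4 and above in the Rfx2 line were chosen with earlier results known.

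Replicate numbers come from the sample titles. In the Rfx2 line knockout and wild type of the same number deviated together in all 6 pairs (correlations 0.16 to 0.614). For numbers 3, 5 and 6, however, a wild type of another number correlated more with the knockout. Whether the numbers pair the samples is therefore not settled, and the replicate block is an alternative only. The members and gene lists were chosen with earlier results of these data known. Genes named in full were the 4 ciliary kinesins, Kif7 and Kif24, members called in any line (up to 6 for each list and line), and the member of each list with the largest difference.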

Additional observations from a re-analysis of the deposited data

Results flagged for a closer look

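Of 96 groups tested over 16 kinesin genes, 6 held a library far from the rest of its group by Dixon's criterion, which chance gives in about 1 of 20 groups. Kif16b stood at 54.94 CPM in Rfx2 knockout replicate 4 (others 48.73 to 50.03) and at 25.47 CPM in Rfx3 knockout replicate 3 (others 37.64 to 40.84). Kif1c was at 265.0 CPM in Rfx1 knockout replicate 3 (others 301.5 to 305.0), and Kifc5b at 13.11 CPM in Rfx1 knockout replicate 4 (others 7.241 to 8.224). Kif5a was at 15.56 CPM in Rfx1 wild-type replicate 1 (others 9.407 to 10.04) and at 16.6 CPM in Rfx3 wild-type replicate 6 (others 9.248 to 11.31).

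The effect of the Rfx3 knockout on Kifc3 differed from that of the Rfx2 knockout by 0.34 on the log2 scale (edgeR adjusted p = 0.0328). The other 36 kinesin genes did not pass that test in edgeR.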

How the results depend on the processing

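In the Rfx1 line every alternative run gave 0 calls. The 5 higher calls of the Rfx2 line became 3 in the fit of all groups (Kif13a, Kif1c and Kif7). They became 3 in replicates 4 and above (Kif13a, Kif5c and Kif7). Kif7 was not among the 5 of the full line. The higher calls became 6 with DESeq2, 4 in replicates 1 to 4, and 5 to 6 when single libraries were left out. Replicates 1 to 3 also gave 5, but these were 4 mitotic kinesins and Kif13a, and of them only Kif13a was called in the full line. The 7 lower calls became 1 in replicates 1 to 3, 14 in replicates 4 and above, 5 in replicates 1 to 4, 8 with DESeq2, and 6 to 7 with single libraries left out. The replicate block added Kif21b in the Rfx2 line (6 higher, 7 lower) and changed no other call there. The 3 higher calls of the Rfx3 line became 6 in the fit of all groups, 1 with limma-voom, 1 with no filter, 1 with the replicate block, 0 in replicates 1 to 3, 0 in replicates 1 to 4, 13 in replicates 4 to 6, and 1 to 11 with single libraries left out. The upper end was the fit without Rfx3 knockout replicate 3. The 7 lower calls became 1 in replicates 1 to 3 and 0 in replicates 1 to 4, and stayed at 7 without any single library. Kif12, left out of the main test by the filter, was added as lower in the Rfx2 and Rfx3 lines by DESeq2 (adjusted p = 0.00876 and 5.5e-05). In edgeR with no filter it was added as lower in both of these lines too. In the Rfx3 and Rfx1 lines same numbers did not all deviate together (correlations -0.364 to 0.204 and -0.0894 to 0.454). With the block the Rfx3 line had 1 higher and 5 lower. Kifc1, Kif5c, Kif16b and Kif2a did not pass there (edgeR adjusted p = 0.0767, 0.07965, 0.0566 and 0.0615). For the difference of the effects, higher calls were 0 to 1 with single libraries left out, and lower calls 2 with DESeq2, 1 with limma-voom and 0 to 2 with single libraries left out. The subsets hold fewer samples, and for the other settings the cause was not tested.

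Signs turned as follows, all in genes not called in the full line. In replicates 4 and above of the Rfx2 line the log2 difference was -0.034 for Kif1b, -0.19 for Kif14, -0.12 for Kif15, -0.43 for Kif18b, -0.31 for Kif20a, -0.16 for Kif20b, -0.17 for Kif22, -0.36 for Kif23, -0.18 for Kifc1, -0.26 for Kifc5b and -0.0073 for Kif1bp. In replicates 1 to 3 it was 0.014 for Kif21a, -0.047 for Kifc2, 0.033 for Kif18a, 0.012 for Kif2c and 0.077 for Kif26a, and in replicates 1 to 4 it was 0.010 for Kif26b. In the Rfx3 line it was 0.13 for Kif13a, 0.10 for Kif1b, 0.055 for Kif11 and -0.081 for Kif1bp in replicates 4 to 6, and -0.071 for Kif1a, -0.12 for Kif3c, -0.090 for Kif5b, -0.070 for Kif20b and 0.22 for Kif26a in replicates 1 to 3. In replicates 1 to 4 it was -0.035 for Kif3c and 0.067 for Kif26a. Kif6 turned to -0.020 with limma-voom and -0.014 with the replicate block in the Rfx1 line, and to -0.11 with limma-voom in the difference of the effects. With single libraries left out, values ran from -0.21 to 0.15 for Kif6, -0.12 to 0.16 for Kif9, -0.16 to 0.074 for Kif27 and -0.13 to 0.095 for Kif24 in the Rfx1 line. They ran from -0.0043 to 0.033 for Kif1b, -0.046 to 0.17 for Kifc5b and -0.19 to 0.028 for Kif26a in the Rfx2 line, from -0.16 to 0.053 for Kif1b, -0.021 to 0.024 for Kif1bp and -0.22 to 0.018 for Kif26a in the Rfx3 line, and from -0.12 to 0.22 for Kif6 in the difference of the effects.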
